A study of Mus musculus with 4 samples.

Results

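The data compared 2 single-cell RNA libraries from subcutaneous Pan02 tumours, 1 from mice labelled anti-PD-1 and 1 from mice labelled anti-LIF. Pan02 is a mouse pancreatic cancer line, and it was grown in the right flank of female C57BL/6 mice aged 6 to 7 weeks until the mice were placed at random into groups at a tumour size of about 50 mm3. Both libraries come from a series of 4, and the control and the combined-antibody library were not used here, so no value below says how either library differs from untreated tumours. The protocol text, which is the same for every sample, names 200 µg of anti-PD-1 (clone RMP1-14) and 25 mg/kg of IgG or anti-LIF, given into the abdomen 3 times a week until the endpoint. It does not say which partner antibody, if any, mice of either arm received. Each library pools 3 tumours, so no tumour can be told from another, the comparison has 1 library a side, and no test was made. The sample labels name the Pan02 cancer cell as the cell type, although both libraries hold whole dissociated tumours with host cells. Of 30237 barcodes in both libraries, 28406 were kept, which had 200 genes or more and a mitochondrial share of 20% or less of their UMIs (unique molecular identifiers, each standing for 1 captured RNA molecule). The kept cells were 14392 of 15191 barcodes in the anti-PD-1 library and 14014 of 15046 in the anti-LIF library, against 68102 barcodes in the series.

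LIF, leukaemia inhibitory factor, is a cytokine of the interleukin-6 family. It binds the receptor Lifr together with the shared chain gp130, encoded by Il6st, and signals through the transcription factor Stat3, which induces its own inhibitor Socs3. In pancreatic tumours, cancer cells and fibroblasts are both known as sources of LIF. PD-1, encoded by Pdcd1, is an inhibitory receptor on activated T cells, and its ligand PD-L1, encoded by Cd274, is induced by interferon gamma from T and NK cells, in part through Irf1. The same interferon response raises MHC class I and class II genes, guanylate-binding proteins and the chemokines Cxcl9 and Cxcl10, which attract T cells.

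The kept cells had a median of 1731 UMIs in the anti-PD-1 library and 1674.5 in the anti-LIF library, and median mitochondrial shares of 8.45% and 7.86%. Marker genes assigned the clusters to classes, and each class name below means cells like that type. Low Xist, the RNA that silences an X chromosome in female cells, was part of the rule that named cancer cell clusters. Its levels in the classes are therefore no independent check of that name. In cancer cells Xist was at 2.70 CPM (UMIs of a gene scaled to a common total of the class) and 3.78 CPM in the anti-PD-1 and the anti-LIF library. In fibroblasts it was at 114 and 134 CPM, in macrophages at 118 and 140.3 CPM, and in T cells at 176 and 197 CPM. The libraries shared 247 kept barcodes, and the doublet caller marked 3 and 1 cells, too few to have worked, so doublets remain in the classes.

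For each class and library the UMIs of all cells were added up and scaled to CPM, and the anti-PD-1 value comes first throughout. Log2 ratios are anti-LIF over anti-PD-1, and brackets hold 95% intervals for counting error alone, which leave out the variation between mice. A gene is called past 2-fold where its log2 ratio is 1 or more, or -1 or less. Of 7404 genes measured in cancer cells, macrophages, fibroblasts and T cells, 4 were past 2-fold in the same direction in all 4 classes. Retnla, a secreted protein of type 2 activated macrophages, was higher in the anti-LIF library, with log2 ratios of 3.14, 3.48, 5.17 and 2.02 in that order of classes. In cancer cells, fibroblasts and T cells it had only 63, 9 and 41 UMIs in the anti-PD-1 library. Its level there was 0.632%, 0.482% and 4.43% of that in macrophages in the anti-PD-1 library, and 0.503%, 1.64% and 1.62% in the anti-LIF library. For C1qa, a macrophage gene that these classes should lack, the shares were 0.833%, 4.12% and 4.67%, and 0.860%, 2.72% and 4.87%. Each Retnla share was below that of C1qa. The anti-PD-1 share of Retnla in the T cell class was, however, above those of C1qb (3.94%), C1qc (3.42%), Lyz2 (3.50%) and Apoe (3.65%). Retnla outside macrophages is not read as expression by those classes, and the part of macrophage RNA in it was not tested. S100a8 and S100a9, which neutrophils make in bulk, and the Fc receptor gene Fcgr4 were lower in all 4 classes, with log2 ratios from -3.29 to -1.08. The summed level of 8 neutrophil markers, S100a8 and S100a9 among them, was lower as well in cancer cells (72.0 against 16.0 CPM), macrophages (171 against 115 CPM), fibroblasts (150.1 against 51.4 CPM) and T cells (234 against 58.8 CPM). Of these 8 markers 2 were higher in cancer cells and T cells and 3 in macrophages and fibroblasts, and the part of neutrophil RNA in the 3 lower genes was not tested.

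Cancer cells, T cells and neutrophils made up smaller shares of the anti-LIF library than of the anti-PD-1 library, and fibroblasts and endothelial cells made up larger ones. Shares of a library sum to 100, so fewer cells of 1 class and more cells of the others cannot be told apart. Fibroblasts, the matrix-making cells of the stroma, were at 8.68% [8.22, 9.15] of anti-PD-1 cells (1249 cells) and 22.5% [21.8, 23.2] of anti-LIF cells (3149 cells), 2.59-fold higher. Endothelial cells, which line vessels, were at 3.23% against 7.41% (log2 ratio 1.20 [1.04, 1.36]). Cancer cells were at 30.9% [30.2, 31.7] against 18.9% [18.3, 19.6] (4450 and 2648 cells). There were thus 0.281 fibroblasts per cancer cell in the anti-PD-1 library and 1.19 in the anti-LIF library.

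**Figure D1:**
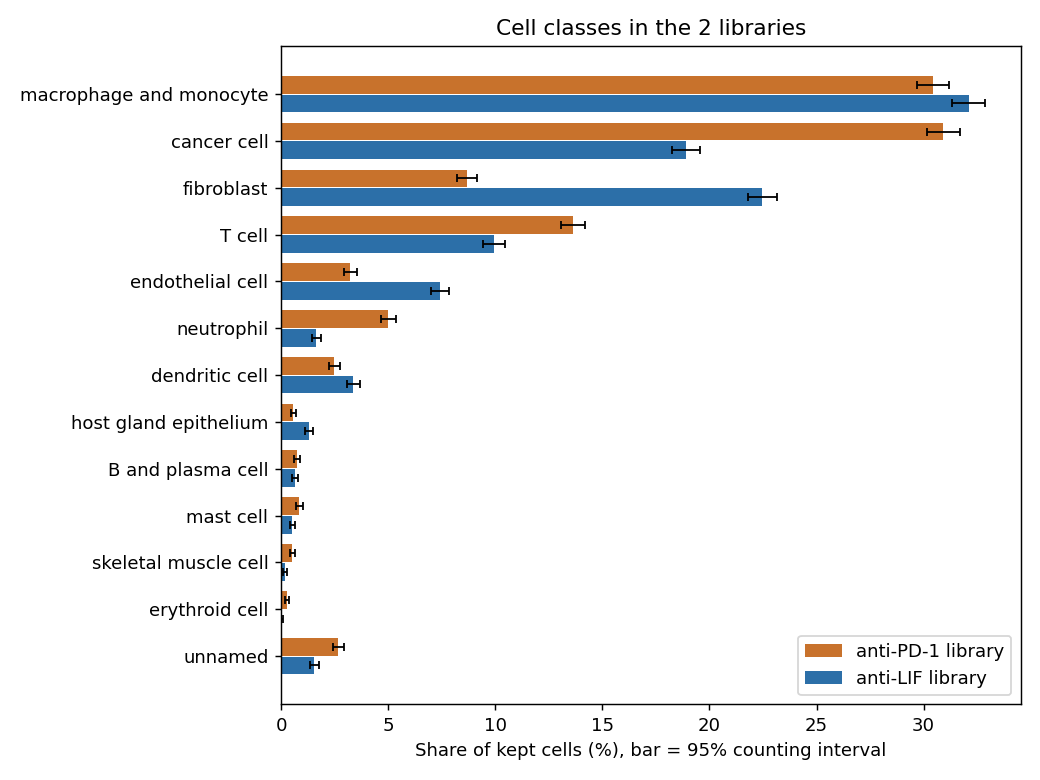
Share of kept cells in each class (percent, horizontal axis) in the anti-PD-1 library (orange) and the anti-LIF library (blue), with 95% counting intervals as bars. Fibroblasts stood at 8.68% against 22.5% and cancer cells at 30.9% against 18.9%, while macrophages with monocytes were near 30% in both.

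Macrophages with monocytes formed the largest immune class in both libraries, at 57.3% against 66.6% of immune cells (log2 ratio 0.22 [0.16, 0.28]). Of all cells they were 30.4% against 32.1%, a log2 ratio of 0.08 that turned to values between -0.08 and -0.05 under 3 other ways of filtering or classing the cells, and as a share of host cells it was -0.15. T and NK cells were at 13.6% [13.1, 14.2] against 9.93% [9.44, 10.4] (1960 and 1392 cells, log2 ratio -0.46 [-0.56, -0.36]). Macrophages thus numbered 2.23 per T or NK cell in the anti-PD-1 library and 3.23 in the anti-LIF library. Neutrophils, short-lived phagocytes, were at 5.00% against 1.63% (719 and 229 cells, log2 ratio -1.61 [-1.83, -1.40]). Dendritic cells, which present antigen to T cells, were at 2.48% against 3.36% (log2 ratio 0.44 [0.24, 0.64]). Mast cells were at 0.855% against 0.507%. For B and plasma cells, at 0.75% against 0.642%, the interval of the log2 ratio held 0. Cells like gland epithelium of the host were at 0.577% against 1.29%, skeletal muscle cells at 0.507% against 0.171% and erythroid cells at 0.285% against 0.0357%. Clusters with RNA of mixed or unlisted types were left unnamed and held 2.68% and 1.56%. Of all UMIs, cancer cells held 51.8% against 32.8% and fibroblasts 9.71% against 26.4%.

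RNA of the interferon gamma response, of antigen presentation and of Lif was lower in anti-LIF cancer cells, and RNA of keratins and proliferins was higher. Of 11540 genes measured in cancer cells, 164 (1.42%) were past 2-fold higher in the anti-LIF library and 446 (3.86%) past 2-fold lower, around a median log2 ratio of 0.04. Of 23 genes of interferon gamma response and MHC class I, 17 were past 2-fold lower and all 23 were lower, with a median log2 ratio of -1.27. All 7 MHC class II genes were past 2-fold lower (median -1.73), and 6 of 14 type I interferon genes were (median -0.91).

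Irf1, a transcription factor of this response, was at 348 CPM against 177 CPM (log2 ratio -0.97 [-1.03, -0.92]). Among known targets of the response, the GTPase gene Gbp2 was at 544 CPM against 182 CPM (log2 ratio -1.58 [-1.63, -1.52]) and Gbp4 at 30.2 CPM against 8.18 CPM. The chemokine genes Cxcl9 and Cxcl10 were at 107 CPM against 44.6 CPM and 230.1 CPM against 81.3 CPM. Cd274, the PD-L1 gene (chromosome 19, 29367455 to 29388095, plus strand, GRCm38), was at 40.6 CPM against 11.0 CPM (log2 ratio -1.88 [-2.11, -1.66]). Genes of antigen processing were lower too, with the peptide transporter gene Tap1 at 102 CPM against 42.4 CPM and the immunoproteasome gene Psmb9 at 43.3 CPM against 14.9 CPM. The class I heavy chain gene H2-K1 was at 2051 CPM against 993 CPM (log2 ratio -1.05 [-1.07, -1.02]), and B2m, the light chain, at 4660.0 CPM against 2514 CPM (log2 ratio -0.89 [-0.91, -0.88]). Tapbp had the smallest difference of the list, at 328 CPM against 221 CPM.

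**Figure D2:**
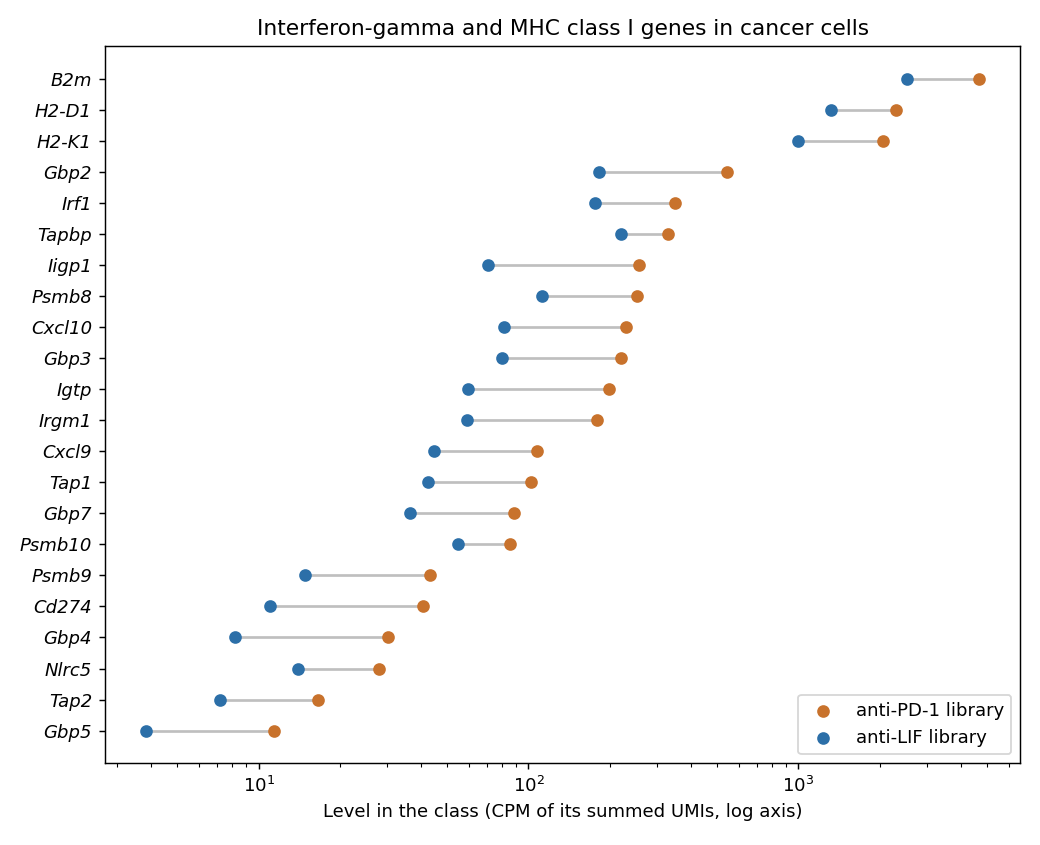
Level of 22 of the 23 interferon gamma and MHC class I genes in cancer cells (CPM, log axis) in the anti-PD-1 library (orange) and the anti-LIF library (blue). Every gene drawn lies further left in the anti-LIF library, from B2m at 4660.0 against 2514 CPM to Gbp5 at 11.4 against 3.84 CPM.

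Promoters of these genes are shown because the members were lower together, and interferon-activated factors are known to bind short motifs of these kinds.
The sequences are from RefSeq (GRCm38.p6), and 18 of the 23 genes matched its promoter table.
The 250 bases before each start were searched on both strands for TTCNNNGAA, the core that STAT proteins bind, and GAAANNGAAA, a pattern of interferon-stimulated elements, and capitals mark matches.
Gbp2, chr3:142620574-142620643, plus strand: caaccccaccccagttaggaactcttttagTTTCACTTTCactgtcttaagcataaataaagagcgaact
Irf1, chr11:53769894-53769962, plus strand: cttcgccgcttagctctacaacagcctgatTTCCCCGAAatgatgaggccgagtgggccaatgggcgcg
Igtp, chr11:58199481-58199555, plus strand: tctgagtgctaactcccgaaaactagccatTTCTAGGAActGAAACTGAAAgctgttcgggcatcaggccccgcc
In Gbp2 the GAAANNGAAA match is on the minus strand, so it reads as its reverse complement in the capitals, and Igtp holds 1 match of each motif. GAAANNGAAA was present in 8 of the 18 promoters, against 3.04% of 27025 promoters in the table and 2.81% of those of genes measured in cancer cells. TTCNNNGAA was present in 5 of 18, against 7.18% and 5.81%. Of the STAT3 target list, 2 of 12 matched promoters held TTCNNNGAA and 1 of 12 GAAANNGAAA. Igtp, a GTPase gene of the same response, was at 199 CPM against 59.5 CPM. The promoters of Cd274, Cxcl9, H2-D1, H2-K1, Psmb9, Psmb10, Tap1 and Tapbp held neither motif. The interferon gamma and MHC class I list was chosen as genes of this response, so its motif shares say nothing about the difference between the libraries. A match of letters is a description of the sequence and not a measured binding site.

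MHC class II RNA in the cancer cell class was compared with RNA of macrophages, which make these genes in large amounts. H2-Ab1, a class II chain, was at 472 CPM against 143 CPM (log2 ratio -1.73 [-1.79, -1.67]) in cancer cells. That was 5.93% of the macrophage level in the anti-PD-1 library and 2.04% in the anti-LIF library. For the complement gene C1qa, which marks macrophages, the same shares were 0.833% and 0.860%, and for Lyz2 they were 0.637% and 0.563%. The summed level of 10 macrophage markers in cancer cells was 108 against 81.2 CPM, with 3 of 10 higher in the anti-LIF library and none at 0. Ciita, the master activator of class II genes, was at 6.42 CPM against 2.14 CPM (log2 ratio -1.57 [-2.12, -1.08]). The part of macrophage RNA in the class II difference was not tested.

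Over the whole class, most genes of the LIF pathway had lower RNA in anti-LIF cancer cells, but several of them did not within its clusters. Lif (chromosome 11, 4257557 to 4272514, plus strand, GRCm38) was at 125 CPM against 43.2 CPM (log2 ratio -1.53 [-1.64, -1.42]), from 4163 and 766 UMIs. Of 7 measured ligands of the family, 7 were lower and 2 past 2-fold, and Il6 was at 20.4 CPM against 5.25 CPM (log2 ratio -1.95 [-2.29, -1.65]). Clcf1, a ligand of the ciliary neurotrophic factor receptor, was at 76.6 CPM against 52.7 CPM. All 6 measured receptor genes were lower, 1 of them past 2-fold. That gene, Lifr, was sparse, at 139 UMIs against 19 UMIs (4.17 CPM against 1.07 CPM). The shared chain Il6st differed little, at 119 CPM against 112 CPM (log2 ratio -0.10 [-0.17, -0.02]), and the oncostatin M receptor gene Osmr was at 28.2 CPM against 15 CPM. Of 14 STAT3 targets 12 were lower and 2 past 2-fold (median -0.70). Stat3 was at 190.2 CPM against 123 CPM, Socs3 at 317 CPM against 195 CPM (log2 ratio -0.70 [-0.75, -0.64]) and the kinase gene Pim1 at 240.2 CPM against 125 CPM. Myc, a growth regulator, was at 464 CPM against 224 CPM (log2 ratio -1.05 [-1.10, -1.0]). Timp1 and Il4ra went the other way, with log2 ratios of 0.46 and 0.18.

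Lif in other classes showed no common direction. In fibroblasts Lif was at 125 CPM against 77.6 CPM (log2 ratio -0.69 [-0.83, -0.56]), with 10 cells holding 38.3% of its UMIs in the anti-PD-1 library. In macrophages it was at 13.9 CPM against 12.4 CPM, an interval that held 0 for the log2 ratio, and in T and NK cells at 12.6 CPM against 26.5 CPM. In gland epithelium, with 83 and 181 cells, it was at 90.5 CPM against 189 CPM. Lifr was at 64.9 CPM against 65.3 CPM in endothelium and 41.0 CPM against 45.7 CPM in macrophages. In CD8 T cells it had 0 UMIs in both libraries, which allows up to 1.87 and 5.01 CPM. Osm, an LIF-related cytokine, was made by macrophages (197 CPM against 173 CPM) and neutrophils (257 CPM against 357 CPM).

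Inflammatory and hypoxia genes were also lower in anti-LIF cancer cells. Of 11 measured inflammatory genes 11 were lower and 5 past 2-fold (median -0.89), among them the neutrophil-attracting chemokine gene Cxcl1 at 62.6 CPM against 24.6 CPM (log2 ratio -1.35 [-1.50, -1.20]). Of 15 genes of hypoxia and glycolysis 11 were lower and 2 past 2-fold (median -0.82). Within clusters 1, 2 and 7 of the class the median of this list was -0.35, -0.47 and -0.19, so lower by less than in the whole class. The hypoxia markers Car9 and Hk2 were at 46.3 CPM against 14.6 CPM and 103 CPM against 46.5 CPM. Vegfa, the main vessel growth factor, was at 623 CPM against 348 CPM (log2 ratio -0.84 [-0.88, -0.80]). The glycolytic enzymes Ldha and Eno1 were slightly higher, with log2 ratios of 0.14 and 0.38.

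Epithelial genes were higher in the anti-LIF library. All 6 measured members were higher and 2 past 2-fold (median 0.86). The keratin genes Krt8 and Krt18, which build the filaments of simple epithelia, were at 589 CPM against 1086 CPM (log2 ratio 0.88 [0.85, 0.91]) and 761 CPM against 1368 CPM (log2 ratio 0.85 [0.82, 0.87]). Krt19 and the tight junction gene Ocln were past 2-fold at low levels, at 3.27 CPM against 13.7 CPM and 1.11 CPM against 6.72 CPM. Cdh1, which encodes E-cadherin, was at 18.0 CPM against 29.3 CPM. Krt8, Krt18 and Krt19, like Prl2c2, were also among the markers that named the cancer cell clusters, so their levels are not independent of the class. Of 9 mesenchymal genes 7 were lower (median -0.38), with Col1a1 at 2415 CPM against 912 CPM (log2 ratio -1.40 [-1.43, -1.38]) and Fn1 at 11143 CPM against 7378 CPM, while Vim was higher (9681 CPM against 11620.0 CPM). The summed level of 10 fibroblast markers in the cancer cell class was 3298 against 1378 CPM, while their level in fibroblasts was 93095 against 92144 CPM.

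Over all cancer cells the 18 proliferation genes were all higher (median 0.64, 1 past 2-fold), but within cluster 2 the median was -0.26 and within cluster 7 it was 0.01. Mki67, a marker of dividing cells, was at 88.2 CPM against 125 CPM, and Rrm2, which makes DNA precursors, at 151 CPM against 303 CPM. Of 10 p53 target and apoptosis genes the median was 0.02, next to the median of all genes.

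Beyond the lists, the named genes that were most clearly higher in cancer cells were led by Prl2c2, a proliferin, at 36.0 CPM against 512 CPM (log2 ratio 3.83 [3.74, 3.92]). Its near-identical neighbour Prl2c3 was at 15.6 CPM against 384 CPM. For Prl2c3, 10 cells held 57.7% of the UMIs in the anti-PD-1 library and 31.4% in the anti-LIF library. Prl2c2 lies at 12996125 to 13005383 and Prl2c3 at 12790816 to 12800079 on chromosome 13 (minus strand, GRCm38), and reads of such paralogs may be split between them. Fgf15, a fibroblast growth factor, was at 5.13 CPM against 22 CPM, and Dynap at 48.2 CPM against 169 CPM. Pcsk6, a proprotein convertase, was at 21.4 CPM against 71.3 CPM, and the interferon-induced membrane protein gene Ifitm1 at 201 CPM against 597 CPM. Ifitm1 thus went against the interferon lists. Col6a3, a chain of type VI collagen, was at 225 CPM against 582 CPM, and Gpr137b, Klra4, Mall and Pcolce2 had log2 ratios from 1.52 to 1.56. The most clearly lower genes were Ms4a4d (41.8 CPM against 3.22 CPM (log2 ratio -3.69 [-4.11, -3.32])), and Hsd11b1, which makes active glucocorticoid, at 78.9 CPM against 9.65 CPM (log2 ratio -3.03 [-3.26, -2.81]). The transcription factor gene Osr2 was at 55.4 CPM against 10.6 CPM, the proteoglycan gene Sdc2 at 156 CPM against 34.1 CPM and the adhesion gene Ncam1 at 74.9 CPM against 17.9 CPM. Ecrg4, Cdhr1, Pdzrn3, Pgm5 and Angpt4 had log2 ratios from -2.69 to -2.10.

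The cancer cells came from 3 clusters, over which they were spread differently in the 2 libraries. Clusters were formed with these same genes, so their sizes locate the cells and are not a result. Cluster 1, of shallow cells with medians of 884 and 825.5 UMIs, held 45.2% and 41.1% of the class. Cluster 2, led by Enpp2, held 45.2% and 20.4%, and cluster 7, led by Prl2c2 and Krt8, 9.55% and 38.6%. Within clusters 1, 2 and 7 the median log2 ratio of the interferon gamma and MHC class I list was -0.77, -0.46 and -0.70, against -1.27 in the class as a whole. That of MHC class II was -1.13, -0.77 and -0.77. Both lists were thus lower in each cluster, by less than in the whole class. For STAT3 targets the medians were -0.24, -0.23 and -0.14, for type I interferon -0.11, -0.11 and -0.19, and for mesenchymal genes -0.12, -0.06 and -0.02. Epithelial genes were higher in each cluster, at 0.41, 0.84 and 0.43.

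Lif was at 73.0 against 31.6 CPM in cluster 1, 159 against 93.9 CPM in cluster 2 and 34.7 against 24.7 CPM in cluster 7. Gbp2 was at 326 against 169 CPM, 704 against 445 CPM and 118 against 80.9 CPM in the same order. The class I gene H2-K1 was at 1923 against 1204 CPM, 2388 against 1989.8 CPM and 993 against 576 CPM. These 3 genes were lower in the anti-LIF library in every cluster. Cxcl9 was lower in clusters 1 and 2, with log2 ratios of -0.82 [-1.26, -0.42] and -0.18 [-0.31, -0.05], and at 0.03 [-0.34, 0.41] in cluster 7. For Cd274 they were -1.06 [-1.97, -0.31], -0.91 [-1.19, -0.66] and -0.49 [-1.12, 0.14], so the interval in cluster 7 held 0. Of the LIF pathway, the shared receptor chain Il6st had log2 ratios of 0.05 [-0.22, 0.31], 0.24 [0.12, 0.36] and 0.05 [-0.09, 0.19], with an interval above 0 in cluster 2. Osmr was at 0.21 [-0.51, 0.88], -0.26 [-0.54, -0.01] and 0.87 [0.28, 1.52], and the cytokine gene Il11 at -1.18 [-2.08, -0.44], 0.22 [0.03, 0.41] and -0.12 [-0.49, 0.27], so neither had a common direction. Prl2c2 was at 11.0 against 70.3 CPM, 3.24 against 11.7 CPM and 156 against 761 CPM. Prl2c3 had log2 ratios of 3.83 [2.81, 5.19], -0.11 [-0.98, 0.61] and 3.25 [3.11, 3.40], so the interval in cluster 2 held 0. Of the 20 named cancer cell genes, 19 had the same direction in all 3 clusters, and Klra4 did not, with a log2 ratio of -0.22 in cluster 2.

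**Figure D3:**
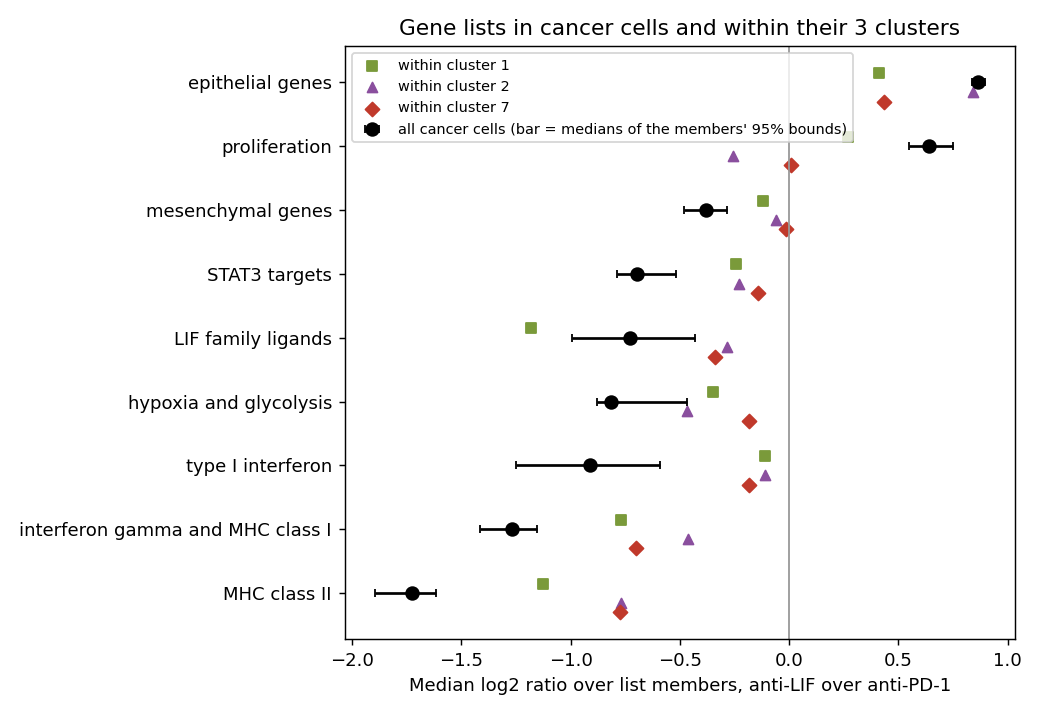
Median log2 ratio over the members of 9 gene lists in cancer cells (anti-LIF over anti-PD-1, horizontal axis). Black circles stand for the whole class, with bars between the medians of the members' 95% interval bounds, and squares, triangles and diamonds for clusters 1, 2 and 7. The MHC class II and interferon gamma lists lie left of 0 in every cluster, and the proliferation list lies on both sides of 0.

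Macrophages and monocytes of the anti-LIF library had higher levels of type 2 activation genes and of the lipid uptake genes Lpl and Cd36, and lower levels of several interferon gamma targets. Of 10729 genes measured in macrophages, 201 (1.87%) were past 2-fold higher and 122 (1.14%) past 2-fold lower, around a median log2 ratio of -0.02. Type 2 activation is the state that interleukins 4 and 13 induce through Il4ra. Of 10 genes of that list 9 were higher and 5 past 2-fold higher (median 1.18). Retnla (chromosome 16, 48842551 to 48844461, plus strand, GRCm38) was at 299 CPM against 3335 CPM (log2 ratio 3.48 [3.43, 3.53]). The ribonuclease gene Ear2 was at 78.2 CPM against 426 CPM (log2 ratio 2.45 [2.35, 2.54]), and the lectin genes Mgl2 and Clec10a at 67.5 CPM against 262 CPM (log2 ratio 1.96 [1.85, 2.07]) and 69.5 CPM against 193 CPM (log2 ratio 1.48 [1.37, 1.59]). Ccl17, a chemokine that attracts CD4 T cells, was at 1.84 CPM against 11.6 CPM. Arg1, which breaks down arginine, was at 1032 CPM against 1530.1 CPM (log2 ratio 0.57 [0.54, 0.60]), and Il4ra was lower, at 115 CPM against 87.5 CPM. Chil3 was at 251 CPM against 308 CPM, but 10 cells held 73.6% of its UMIs in the anti-LIF library.

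Genes of resident-type macrophages and of lipid handling were higher in part. Of 12 resident-type genes 10 were higher and 2 past 2-fold (median 0.57). The hyaluronan receptor gene Lyve1 was at 55.6 CPM against 167 CPM (log2 ratio 1.59 [1.47, 1.71]) and the haemoglobin scavenger gene Cd163 at 29.9 CPM against 58.4 CPM. Lyve1 also decided the macrophage name of cluster 12, described below, so its level in the class is not independent of that name. Cluster 12 held 682 and 2175 of the Lyve1 UMIs. Within it the log2 ratios of Lyve1 and Cd163 were 0.67 [0.55, 0.80] and 0.05 [-0.13, 0.25]. Stab1, another scavenger receptor, was lower, at 476 CPM against 393 CPM. Of 10 lipid-associated genes 7 were higher and 2 past 2-fold (median 0.42). These were Lpl, which frees fatty acids from lipoproteins, at 96.5 CPM against 369 CPM (log2 ratio 1.93 [1.85, 2.03]), and the fatty acid receptor gene Cd36 at 131 CPM against 417 CPM (log2 ratio 1.67 [1.59, 1.75]). Apoe, the lipid carrier, went the other way, at 8175 CPM against 4992 CPM (log2 ratio -0.71 [-0.73, -0.70]), and Trem2 and Spp1 differed less, at 146 CPM against 126 CPM and 1148 CPM against 1026 CPM. Of 13 chemokine genes 4 were past 2-fold higher and 1 past 2-fold lower, with Ccl6 at 1001 CPM against 2105 CPM and Ccl2, which draws in monocytes, at 833 CPM against 1301 CPM.

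Of 23 interferon gamma and MHC class I genes in macrophages 20 were lower and 4 past 2-fold lower (median -0.33). The 4 were Cxcl9 at 792 CPM against 267 CPM (log2 ratio -1.57 [-1.62, -1.51]), Iigp1 at 194 CPM against 84.1 CPM (log2 ratio -1.21 [-1.31, -1.11]), and Gbp4 and Gbp5, with log2 ratios of -1.07 and -1.0. Cxcl10 was at 407 CPM against 358 CPM, while Irf1 was higher, at 272 CPM against 322 CPM. The class I gene H2-K1 differed little, at 3222 CPM against 3234 CPM, and the MHC class II list had a median of -0.07. For PD-L1 RNA the interval held 0, with Cd274 at 67.8 CPM against 63.9 CPM (log2 ratio -0.08 [-0.22, 0.05]), and the other PD-1 ligand gene, Pdcd1lg2, was at 12.7 CPM against 23.4 CPM (log2 ratio 0.88 [0.60, 1.16]). The STAT3 target list had a median of 0.00. Among inflammatory genes Cxcl2, which attracts neutrophils, was at 2128 CPM against 3416 CPM, and Il6 at 5.51 CPM against 19.7 CPM.

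Other named genes that were lower in macrophages of the anti-LIF library were led by the adhesion gene Cadm1, at 80.7 CPM against 14.1 CPM (log2 ratio -2.52 [-2.75, -2.30]). Tnfsf13b, which encodes the B cell survival factor BAFF, was at 46.0 CPM against 9.80 CPM (log2 ratio -2.23 [-2.52, -1.96]), and Il18bp, a secreted inhibitor of interleukin 18, at 84.7 CPM against 30.4 CPM. Vcam1, an adhesion molecule, was at 93.7 CPM against 35.0 CPM, Cd72 at 201 CPM against 70.5 CPM and Ms4a7 at 584 CPM against 239.7 CPM. Lilra5, Zmynd15 and F11r had log2 ratios of -2.22, -1.89 and -1.59. Higher genes included Cd226 (6.59 CPM against 36.9 CPM) and the cell fusion genes Dcstamp (6.51 CPM against 28.6 CPM) and Atp6v0d2 (25.9 CPM against 75.2 CPM), which osteoclasts also use. Flrt3 and Clec4b1 had log2 ratios of 1.43 and 1.46.

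The macrophages fell into 5 clusters, over which they were spread differently in the 2 libraries. Cluster 0, of shallow C1q-high cells, held 44.3% and 26.4%, cluster 5, led by Arg1, Ly6c2 and Chil3, 21.5% and 20.5%, and cluster 8, led by C1qc and Fcrls, 20.7% and 11.0%. Cluster 9, led by Retnla, Mmp12 and Ear2, held 6.07% and 25.0%, and cluster 12, led by Ccl8 and Retnla with Lyve1, 7.38% and 17.1%. Within clusters 0, 5, 8, 9 and 12 the median of the type 2 list was 1.68, 0.42, 0.95, 0.30 and 0.44. In clusters 0, 5 and 8 Retnla was at 8.28 against 91.6 CPM, 4.69 against 137 CPM and 2.73 against 18.5 CPM. These rest on only 25, 13 and 13 UMIs in the anti-PD-1 library, and in cluster 5 10 cells held 86.3% of its anti-LIF UMIs. In clusters 9 and 12 it was at 1998 against 7573 CPM and 1036 against 2933 CPM. Retnla was thus higher in all 5, and the part of RNA from other clusters in clusters 0, 5 and 8 was not tested. Mgl2 was higher in all 5 as well, from 13.8 against 52.1 CPM in cluster 8 to 345 against 493 CPM in cluster 9. Arg1 was higher in clusters 0, 5 and 8 and lower in clusters 9 (2106 against 1685 CPM) and 12 (448 against 368 CPM). The resident-type list ranged from -0.44 in cluster 9 to 0.60 in cluster 0, so its direction was not common to the clusters. The lipid-associated list was at 0.52, 0.01, 0.23, -0.23 and -0.05 in clusters 0, 5, 8, 9 and 12, so its direction was not common either. Spp1 was higher in clusters 0 and 8, with log2 ratios of 0.47 and 0.37. It was lower in clusters 5, 9 and 12, with log2 ratios of -0.62, -0.61 and -1.10. Cxcl9 was lower in 4 clusters, with 1388 against 566 CPM in cluster 8, and higher in cluster 5, at 92.7 against 128 CPM, where the log2 ratio of the interferon gamma list was 0.04. Gbp2 was lower in all 5, with log2 ratios from -0.70 to -0.29. Of the 20 named macrophage genes 11 had the same direction in all 5 clusters.

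**Figure D4:**
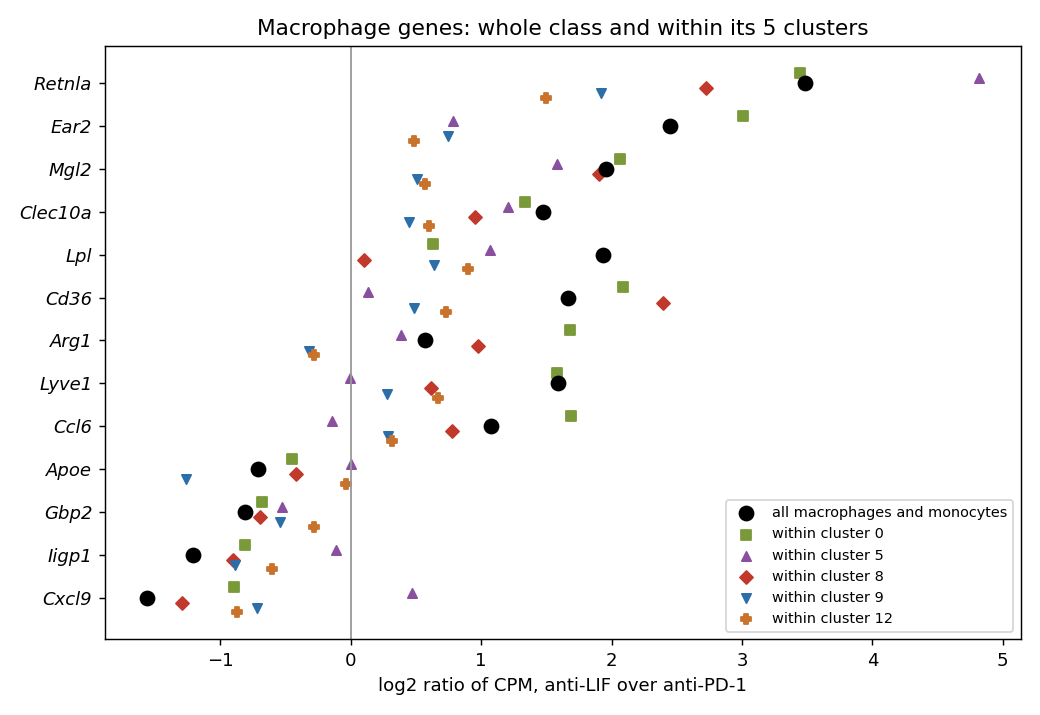
Log2 ratio (anti-LIF over anti-PD-1, horizontal axis) of 13 genes in all macrophages and monocytes (black circles) and within their 5 clusters (coloured symbols). Retnla and Mgl2 lie right of 0 in every cluster and Gbp2 and Iigp1 left of it, while Arg1 lies on both sides. Ear2 has no symbol for cluster 8, where it had 0 UMIs in the anti-PD-1 library.

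Fibroblasts were the class with the largest gain in share among those with over 1000 cells in each library. Of 11167 genes measured in them, 117 (1.05%) were past 2-fold higher in the anti-LIF library and 122 (1.09%) past 2-fold lower, around a median log2 ratio of -0.02. Matrix genes differed little, and the median of 16 matrix-making genes was 0.05, with Col1a1 at 54883 CPM against 49705 CPM and Col3a1 at 31656 CPM against 33758 CPM. Postn and Fn1, matrix proteins of activated fibroblasts, were at 3138 CPM against 4599.8 CPM and 4645 CPM against 6886 CPM, and Col11a1 was the 1 member past 2-fold, at 143 CPM against 69.6 CPM. Of 15 inflammatory-type genes 12 were higher and 1 past 2-fold (median 0.47). That gene was Efemp1, a matrix glycoprotein, at 158 CPM against 383 CPM (log2 ratio 1.27 [1.18, 1.37]). Has1, which makes hyaluronan, was at 315 CPM against 627 CPM (log2 ratio 0.99 [0.92, 1.06]), and Dpt, a marker of universal fibroblasts, at 1164 CPM against 1845 CPM. Il6, the cytokine by which inflammatory fibroblasts are known, was at 289.5 CPM against 412 CPM (log2 ratio 0.51 [0.43, 0.59]), and complement C3 at 2404 CPM against 3246 CPM.

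Interferon genes in fibroblasts did not follow those of cancer cells. The interferon gamma and MHC class I list had a median of -0.02, with 10 members higher and 13 lower. Cxcl10 was past 2-fold higher, at 289.5 CPM against 648 CPM (log2 ratio 1.16 [1.09, 1.24]), and Cxcl9 was at 410.2 CPM against 494 CPM (log2 ratio 0.27 [0.20, 0.33]). Cxcl9 in fibroblasts was thus at 51.8% of the macrophage level in the anti-PD-1 library and at 185% in the anti-LIF library. All 7 MHC class II genes were lower and 2 past 2-fold (median -0.62), with H2-Ab1 at 5.52% and 4.15% of its macrophage level and C1qb at 3.63% and 2.71%. The summed level of 10 macrophage markers in fibroblasts was 556 against 411 CPM, with 3 of 10 higher, and its part in the class II values was not tested. Of 15 hypoxia genes 11 were lower (median -0.38), and all 5 measured leukocyte adhesion genes were higher, with Icam1 at 100.3 CPM against 189 CPM and Cd34 at 257 CPM against 428 CPM.

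Nos2, which makes nitric oxide, had 342 UMIs in 53 fibroblasts of the anti-PD-1 library and 12 UMIs in 8 of the anti-LIF library, and 10 cells held 59.9% of the former. Saa3, an acute phase gene, was at 232 CPM against 106 CPM, with 10 cells holding 56.2% in the anti-PD-1 library. Both values rest on few cells. Named genes that were higher were led by Pamr1 (26.7 CPM against 113 CPM (log2 ratio 2.07 [1.84, 2.31])), and the basement membrane collagen gene Col15a1 was at 280.1 CPM against 633 CPM (log2 ratio 1.18 [1.10, 1.25]). The growth factor gene Wnt2 was at 46.1 CPM against 103 CPM, the peptidase gene Dpp4 at 25.3 CPM against 61.5 CPM, and Itih5, Tnxb and Cadm3 had log2 ratios of 1.09, 1.11 and 1.18. Among lower genes Moxd1 was at 257 CPM against 88.6 CPM (log2 ratio -1.54 [-1.64, -1.43]), the insulin-like growth factor binding protein gene Igfbp4 at 3079 CPM against 1747 CPM (log2 ratio -0.82 [-0.84, -0.79]) and Il4ra at 76.8 CPM against 40.0 CPM. Col23a1, Gfra1, Per1, Secisbp2l, Ide, Rdh10 and Gpx3 had log2 ratios from -1.56 to -0.73. Within the 3 fibroblast clusters the inflammatory-type list had medians of 0.33 in cluster 4, 0.25 in cluster 10 and 0.10 in cluster 11. Cxcl10 was at 313 against 892 CPM and 274 against 425 CPM in clusters 4 and 10 but at 229 against 88.0 CPM in cluster 11, the shallow one. Il6 was at 489.6 against 679 CPM in cluster 4 (log2 ratio 0.47 [0.39, 0.55]), but lower in cluster 10, at 56.0 against 39.8 CPM (log2 ratio -0.49 [-0.85, -0.14]), and at 56.6 against 46.9 CPM in cluster 11, where the interval held 0. Of the 20 named fibroblast genes 15 had the same direction in all 3 clusters.

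T and NK cells of the anti-LIF library held a smaller part of CD8 T cells, which kill target cells, and larger parts of CD4, regulatory and gamma delta T cells. CD8 T cells were 58.0% [55.8, 60.2] of T and NK cells in the anti-PD-1 library and 35.8% [33.3, 38.4] in the anti-LIF library (1137 and 499 cells). Regulatory T cells, whose role is to hold other T cells in check, stood at 11.2% against 17.6% (220 and 245 cells, log2 ratio 0.65 [0.38, 0.92]). CD8 T cells thus numbered 5.17 per regulatory T cell in the anti-PD-1 library and 2.04 in the anti-LIF library. Naive and conventional CD4 T cells were at 5.66% against 19.1% (log2 ratio 1.75 [1.43, 2.09]), and gamma delta T cells at 4.08% against 9.63% (log2 ratio 1.24 [0.83, 1.66]). For NK cells, at 6.43% against 4.89%, and dividing T cells, at 3.67% against 4.24%, the intervals of the log2 ratio held 0. As shares of all cells, CD8 T cells were at 7.90% against 3.56% and regulatory T cells at 1.53% against 1.75%, the latter with an interval of the log2 ratio that held 0. NK cells were at 0.875% against 0.485% of all cells (log2 ratio -0.85 [-1.30, -0.41]).

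**Figure D5:**
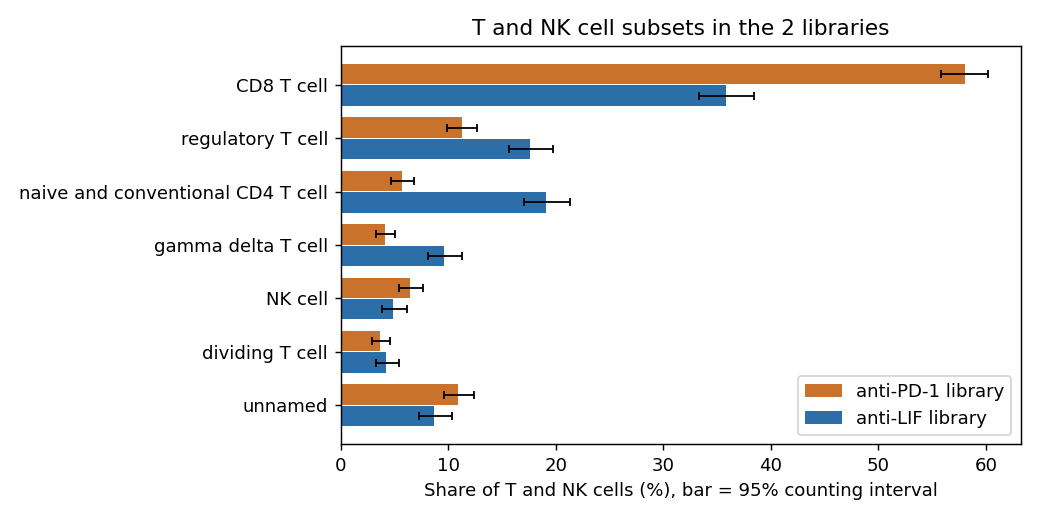
Share of T and NK cells in each subset (percent, horizontal axis) in the anti-PD-1 library (orange) and the anti-LIF library (blue), with 95% counting intervals as bars. CD8 T cells stood at 58.0% against 35.8%, and naive and conventional CD4 T cells at 5.66% against 19.1%.

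Over all T and NK cells, 7976 genes were measured, and 81 (1.02%) were past 2-fold higher in the anti-LIF library and 89 (1.12%) past 2-fold lower. These levels follow the subset shares too, and the spread over clusters differed: cluster 3, led by CD8 genes, held 74.9% and 46.7%, and cluster 13, led by Ctla4 and Icos, 20.5% and 43.6%. All 16 cytotoxic effector genes were lower and 5 past 2-fold lower (median -0.73), with the granzyme gene Gzmb at 742 CPM against 339 CPM (log2 ratio -1.13 [-1.25, -1.01]) and the chemokine gene Ccl5 at 3039.7 CPM against 1619.6 CPM (log2 ratio -0.91 [-0.97, -0.85]). The naive and memory list was higher in 8 of 10 members and past 2-fold in 3 (median 0.65), with the transcription factor gene Tcf7 at 95.1 CPM against 212 CPM (log2 ratio 1.16 [0.94, 1.38]) and S1pr1, which lets T cells leave tissue, at 104 CPM against 249.9 CPM (log2 ratio 1.26 [1.06, 1.46]). Foxp3, the regulatory T cell factor, was at 121 CPM against 220.1 CPM. Among named genes Ramp3 and Tnfsf11, which encodes RANKL, were higher, at 72.9 CPM against 197 CPM and 87.4 CPM against 222 CPM, as was Pim1, at 902 CPM against 1631 CPM. Cpm, Tmem176a, Tcrg-C1, Tmem64 and Ly9 had log2 ratios from 0.99 to 1.23. Itga1, the collagen receptor of tissue-resident T cells, was at 129 CPM against 45.3 CPM (log2 ratio -1.50 [-1.85, -1.18]), and the granzyme B inhibitor gene Serpinb9 at 282 CPM against 134 CPM. Gldc, Tmem163, Hist1h1c, Gpd2, Dapk2, Paqr7 and Cst7 had log2 ratios from -1.79 to -1.03. Of the 20 named T cell genes 16 had the same direction in all 3 clusters.

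Within CD8 T cells, levels of Gzmb, Prf1 and Tox were lower in the anti-LIF library and those of Tcf7 higher, while the interval of Ifng held 0. Of 5486 genes measured in CD8 T cells, 28 (0.51%) were past 2-fold higher and 126 (2.3%) past 2-fold lower, around a median log2 ratio of -0.02. Of 16 cytotoxic effector genes 12 were lower and 6 past 2-fold lower (median -0.53). Gzmb (chromosome 14, 56258838 to 56262260, minus strand, GRCm38) was at 734 CPM against 234 CPM (log2 ratio -1.64 [-1.91, -1.40]). Prf1, which encodes the pore-forming perforin, was at 459 CPM against 124 CPM (log2 ratio -1.88 [-2.26, -1.54]), and the chemokine gene Ccl3 at 307 CPM against 110.3 CPM (log2 ratio -1.47 [-1.87, -1.10]), with 10 cells holding 68.2% of the Ccl3 UMIs in the anti-PD-1 library. Gzmc had 281 UMIs in 15 anti-PD-1 cells and 5 UMIs in 3 anti-LIF cells, and Gzmf 173 UMIs in 16 cells and 1 UMI in 1 cell (log2 ratio -5.43 [-11.32, -3.51]). Both granzymes therefore rest on a few cells of the anti-PD-1 library. Ifng, the gene of interferon gamma, was at 304 CPM against 336 CPM (log2 ratio 0.14 [-0.10, 0.38]), and the killer cell genes Nkg7 and Klrk1 at 753 CPM against 717 CPM and 233 CPM against 364 CPM.

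Of 8 measured exhaustion genes 6 were lower and 2 past 2-fold (median -0.57). Tox, a factor of chronically stimulated T cells, was at 196 CPM against 90.3 CPM (log2 ratio -1.11 [-1.56, -0.70]), and Pdcd1, the PD-1 gene, at 464 CPM against 296 CPM (log2 ratio -0.65 [-0.90, -0.41]). Ctla4, another inhibitory receptor, was at 821 CPM against 856 CPM. Tcf7, which marks CD8 T cells able to renew, was at 66.6 CPM against 222 CPM (log2 ratio 1.74 [1.36, 2.12]). S1pr1 was at 50.4 CPM against 122 CPM, and Ccr7, a homing receptor gene of naive cells, was lower, at 90.3 CPM against 36.8 CPM, with 10 cells holding 69.0% of its anti-PD-1 UMIs. Of 8 type I interferon genes 7 were higher (median 0.82), with Ifit1 at 99.0 CPM against 219 CPM and Rsad2 at 19.9 CPM against 55.2 CPM. For these 2 genes 10 cells held 56.5% and 84.8% of the UMIs of the anti-LIF library, which were 131 and 33 in all. All 12 dissociation stress genes were higher in CD8 T cells (median 0.54), with the heat shock genes Hspa1a and Hspa1b at 41.1 CPM against 169 CPM and 128 CPM against 496 CPM. In these 2 genes 10 cells held 84.2% and 75.8% of the UMIs of the anti-LIF library. The stress list had medians of -0.45 in cancer cells and 0.17 in macrophages, and the part of tissue handling in these values was not tested.

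The 5 CD8 sub-clusters differed in these genes, and sub-cluster 4, led by Hspa1b, Hspa1a and Ifng, held 12.1% and 30.1% of CD8 T cells, and sub-cluster 6, led by Gzmc, Gzmf and Prf1, 17.1% and 8.22%. Gzmb was lower in all 5, at 559 against 248 CPM in sub-cluster 0, 465 against 232 CPM in sub-cluster 1, 299 against 32.9 CPM in sub-cluster 4, 1162 against 738 CPM in sub-cluster 6 and 1465 against 209 CPM in sub-cluster 10. Pdcd1 was lower in all 5 as well, from 539 against 383 CPM in sub-cluster 6 to 309.8 against 241 CPM in sub-cluster 4. Sub-clusters 6 and 10 had only 41 and 34 anti-LIF cells, under the 50 that list medians within clusters needed. No intervals are given for Gzmb and Pdcd1 in the sub-clusters, so their common direction describes the values alone. Prf1 was at 1099.7 against 56.8 CPM in sub-cluster 6 (514 and 4 UMIs, of 737 and 74 in all), and at 246 against 225 CPM in sub-cluster 0. Without sub-cluster 6 the log2 ratio of Prf1 was -0.55 [-0.97, -0.17], and those of Gzmb, Tox and Tcf7 were -1.74, -1.04 and 1.40. Genes past 2-fold then numbered 24 higher and 62 lower of 4573. The CD8 name of these cells depended on the setting. At a sub-cluster resolution of 2 the cluster led by Gzmc (150 and 9 cells), and with at least 1000 UMIs per cell that led by Gzmc and Prf1 (145 and 22 cells), stayed unnamed because more of their leading genes were markers of conventional CD4 T cells. Tcf7 was higher in sub-clusters 0, 1 and 4, at 34.8 against 101 CPM, 132 against 272 CPM and 225 against 400.4 CPM. The median of the cytotoxic list was 0.01, -0.12 and -0.34 in these 3 sub-clusters, so the class value was not matched within sub-clusters 0 and 1.

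In NK cells (126 and 68 cells) the effector genes Gzmb and Prf1 differed little, at 2173 CPM against 2149 CPM and 712 CPM against 662 CPM, and Gzma was lower, at 4575 CPM against 2609.9 CPM. In regulatory T cells, with 2234 genes measured, 20 (0.895%) were past 2-fold higher in the anti-LIF library and 8 (0.358%) past 2-fold lower. The regulatory T cell programme differed little, with a median of 0.06 over 9 genes and Foxp3 at 884 CPM against 1026 CPM (log2 ratio 0.21 [-0.01, 0.45]). Ctla4, by which these cells restrain others, was at 3072 CPM against 2613 CPM, Pdcd1 at 219 CPM against 108 CPM (log2 ratio -1.0 [-1.63, -0.42]) and Stat3 at 929.8 CPM against 1306 CPM.

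Dendritic cells of the anti-LIF library had higher levels of Ccl17, Ccl22 and Mgl2, and lower ones of interferon gamma targets. Of 5703 genes measured in dendritic cells, 60 (1.05%) were past 2-fold higher and 55 (0.964%) past 2-fold lower, around a median log2 ratio of 0.02. Ccl17 and Ccl22, which attract regulatory and other CD4 T cells through Ccr4, were at 163 CPM against 335 CPM (log2 ratio 1.04 [0.80, 1.29]) and 829 CPM against 1446 CPM (log2 ratio 0.80 [0.70, 0.91]). In the anti-PD-1 library 10 cells held 55.1% of the Ccl17 and 57.0% of the Ccl22 UMIs, and in the anti-LIF library 35.6% and 53.7%. The class also mixes cell types. At a resolution of 2, dendritic cells formed a cluster led by Cd209a and Il1r2 (295 and 360 cells) and another led by Ccl22 and Ccr7 (65 and 112 cells). The part of this mix in the class levels was not tested. Mgl2, a lectin of type 2 dendritic cells, was at 424 CPM against 717 CPM (log2 ratio 0.76 [0.61, 0.91]). Of 22 interferon gamma and MHC class I genes 20 were lower and 4 past 2-fold lower (median -0.25). Cxcl9 was at 399 CPM against 143 CPM, but 10 cells held 73.7% of its UMIs in the anti-PD-1 library. All 14 measured proliferation genes were higher and 4 past 2-fold (median 0.65). The decoy receptor gene Il1r2 was at 1177 CPM against 730.1 CPM (log2 ratio -0.69 [-0.80, -0.58]) and Fgl2 at 755 CPM against 463 CPM, and Ifitm1, which was higher in cancer cells, was lower here, at 1343 CPM against 870.1 CPM. Cldnd1, Mrtfa, Crip1 and Parvg had log2 ratios of 0.96, 1.15, 0.62 and -0.94.

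In endothelial cells, hypoxia genes were lower in the anti-LIF library and heat shock genes higher. Of 7372 genes measured in endothelial cells, 70 (0.95%) were past 2-fold higher and 82 (1.11%) past 2-fold lower, around a median log2 ratio of -0.02. Of 12 hypoxia and glycolysis genes 11 were lower and 3 past 2-fold (median -0.47), with Vegfa at 122 CPM against 46.3 CPM (log2 ratio -1.40 [-1.77, -1.04]). Vegfa stood higher in cancer cells of both libraries and was lower there in the anti-LIF library too. The part of cancer cell RNA in the endothelial hypoxia values was not tested. The glycolytic enzyme gene Pkm was at 550.5 CPM against 402 CPM (log2 ratio -0.45 [-0.60, -0.31]). Of 23 interferon gamma and MHC class I genes 20 were higher, with none past 2-fold (median 0.20), so endothelium had the opposite direction to cancer cells, a difference that was not tested. Cxcl10 was at 1058 CPM against 1714 CPM (log2 ratio 0.70 [0.61, 0.79]) and Irf1 at 585 CPM against 822 CPM. Lifr differed little, at 64.9 CPM against 65.3 CPM, while Il6st was at 453 CPM against 559.5 CPM (log2 ratio 0.30 [0.16, 0.45]), Osmr at 99.7 CPM against 157 CPM and the STAT3 target Socs3 at 696 CPM against 1099 CPM (log2 ratio 0.66 [0.55, 0.77]). Of 9 sprouting genes 8 were lower, none past 2-fold (median -0.09), and the adhesion list had a median near 0 (median 0.08), with the P-selectin gene Selp at 890.2 CPM against 626 CPM. Hspa1a and Hspa1b were at 132 CPM against 336 CPM (log2 ratio 1.34 [1.10, 1.60]) and 333 CPM against 673 CPM (log2 ratio 1.01 [0.86, 1.17]), and Fmo2 and Tspan2 had log2 ratios of 1.37 and 1.30. Ranbp1, Txndc17 and Vapa were lower, with log2 ratios of -0.54, -0.58 and -0.57. The haemoglobin gene Hbb-bs had 548 UMIs in endothelial cells of the anti-PD-1 library, of which 10 cells held 97.4%, and 2 in the anti-LIF library. The summed level of 10 macrophage markers in endothelial cells was 1172 against 609 CPM, with 1 of 10 higher, and its part in the class was not tested.

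Neutrophils, with 719 and 229 cells, had the largest share of genes past 2-fold of the 7 classes described, at the smallest number of UMIs. Of 4007 genes measured in neutrophils, 142 (3.54%) were past 2-fold higher in the anti-LIF library and 151 (3.77%) past 2-fold lower, around a median log2 ratio of 0.02. Il1rn, the interleukin-1 receptor antagonist, was at 639.9 CPM against 2168 CPM (log2 ratio 1.76 [1.62, 1.90]), the stress response gene Ppp1r15a at 489.8 CPM against 1044 CPM and the cystine transporter gene Slc7a11 at 291 CPM against 628 CPM. Of 11 inflammatory genes 5 were past 2-fold higher and 1 past 2-fold lower (median 0.86), with Ccl3 at 765 CPM against 2254 CPM (log2 ratio 1.56 [1.42, 1.70]), Cxcl2 at 6376 CPM against 10452 CPM and Il1b at 6860.4 CPM against 8632 CPM. S100a8 and S100a9 were lower in neutrophils themselves, at 50107 CPM against 26629 CPM (log2 ratio -0.91 [-0.94, -0.88]) and 59805 CPM against 33234 CPM (log2 ratio -0.85 [-0.88, -0.82]). The granule genes Ngp and Camp, which precursors make, were at 15727 CPM against 7203 CPM and 2869.7 CPM against 1050.1 CPM, and the secreted glycoprotein gene Lrg1 at 329.7 CPM against 102 CPM. In the anti-LIF library 10 cells held 63.1% of the Ngp and 76.5% of the Camp UMIs, and in the anti-PD-1 library 31.3% and 34.8%. Of 15 proliferation genes 7 were past 2-fold lower (median -0.99). Precursor cluster 18 held 23.4% of anti-PD-1 neutrophils and 18.8% of anti-LIF ones, with medians of 2506 and 1474 UMIs. The part of this cluster in the class levels was not tested. Marcksl1 was higher, at 1173 CPM against 2402 CPM, and Wfdc21, Anxa1 and Tmx3 lower, with log2 ratios of -0.99, -0.90 and -2.68. The summed level of 10 macrophage markers in neutrophils was 2754 against 3615 CPM, with 9 of 10 higher, and its part in these values was not tested.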

How the data were processed

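The deposited matrices hold counts as deposited: whole UMIs for each gene in each barcode, with no normalization by the authors to be seen in the values. The protocols in the labels describe tumour dissociation, removal of erythrocytes, optional removal of debris and dead cells, the SeekOne MM 3' kit and 2 possible sequencers, without saying which served which library. The submitters' processing notes name Seurat 4.0.3 and mm10, and the aligner was not given in the sources used here. Depth was 67503066 UMIs in the anti-PD-1 and 57720774 in the anti-LIF library, with a lowest count of 500 per barcode in both.

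Kept cells were scaled to 10000 UMIs, log-transformed and clustered (scanpy 1.11.5, leidenalg 0.10.2, 2000 variable genes, 30 components, 15 neighbours, resolution 1). A cluster took the class of its leading marker list where the list's mean log2 level stood at least 0.8 over the median of clusters, at least 3 markers were past 2-fold, and no rival reached 0.7 of it. Cancer cell clusters also needed Xist below 0.25 of the cluster median. A second clustering, of T and NK cells alone, used 1500 variable genes. The naming thresholds, the Xist rule and the eosinophil and osteoclast gene lists that took names away were set after the clusters were seen, and Lyve1 was also counted as a macrophage gene. The lists, the named-gene rule and the comparison itself were chosen with earlier results of these data known. Scrublet, run in scanpy, called 0.0208% and 0.00714% of cells doublets, so it did not work here.

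A gene counted as measured with at least 50 UMIs over both libraries, and 0.5 counts were added for log2 ratios. Intervals are 95%, exact Clopper-Pearson for shares and exact conditional for ratios (scipy 1.17.1). The ratio intervals were tried on simulated counts that held counting error alone, which is what they assume. Such counts cannot show how the intervals hold with spread between cells or tumours. The level allowed by a count of 0 is 3 counts. Named genes have at least 20 CPM, an interval excluding 0, 10 cells holding under 25% of UMIs and a level of at least 0.25 of the highest class, and are ranked by the bound nearest 0, with 10 in each direction in the 4 large classes and 4 elsewhere. Genes of the fixed lists and genes singled out for few cells are named beyond that rule. The percentage called is the share of measured genes past 2-fold, with no test behind it. Gene positions are from GENCODE M21, in which 32158 of 32285 gene identifiers were found. 1 gene of the interferon gamma and MHC class I list enters its counts and medians and is not reported here by itself.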

Additional observations from a re-analysis of the deposited data

How the results depend on the processing

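Log2 ratios are anti-LIF over anti-PD-1. Of the values tried under other settings for the main comparisons, 84 stayed within the error or within 1.5 times of the count reported, and 54 moved, and no list or share past 2-fold changed sign. Named genes kept 1 direction in every cluster of their class for 19 of 20 in cancer cells, 11 of 20 in macrophages, 15 of 20 in fibroblasts and 16 of 20 in T cells. Among genes past 2-fold that turned were macrophage Cxcl9, at 0.47 in cluster 5 against -1.57, fibroblast Cxcl10, at -1.38 in cluster 11 against 1.16, and cancer cell Klra4, at -0.22 in cluster 2 against 1.52. For the share of macrophages the log2 ratio of 0.08 became -0.058 with a mitochondrial limit of 10%, 0.0028 with at least 1000 UMIs per cell, -0.054 with a class for each cell by its own marker UMIs, -0.15 as a share of host cells and -0.082 with cluster 12 unnamed, the last chosen after seeing the data because Lyve1 alone decides its name. With a class for each cell the cancer cell share was at -0.63 and the fibroblast share at 1.09. As shares of host cells, fibroblasts were at 1.14, T cells at -0.69, endothelial cells at 0.97, neutrophils at -1.84 and dendritic cells at 0.21. T cells were at -0.34 at resolution 2, -0.77 with the limit of 10% and -0.57 with at least 1000 UMIs, where neutrophils were at -1.92 and naive and conventional CD4 T cells at 1.22.

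Genes past 2-fold numbered 610 in cancer cells, 323 in macrophages, 239 in fibroblasts and 170 in T cells. With at least 200 UMIs per gene they were 329, 144, 76 and 40, and with 1 UMI 3299, 3757, 3072 and 3649, since the minimum sets how many sparse genes enter. With the mean over cells fibroblasts had 607, macrophages 431 and T cells 264, and with a class for each cell fibroblasts had 505 and macrophages 424, and the share of higher calls in macrophages went from 62.2% to 42.5%; the cause was not tested.

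List medians moved mainly within clusters. In cancer cell clusters 1, 2 and 7 the interferon gamma list was at -0.77, -0.46 and -0.70, STAT3 targets at -0.24, -0.23 and -0.14, and proliferation at 0.27, -0.26 and 0.0087. In macrophage clusters 0, 5, 8, 9 and 12 the type 2 list was at 1.68, 0.42, 0.95, 0.30 and 0.44, and with the mean over cells at 1.45, while the interferon gamma list was at 0.042, -0.17 and -0.0091 in clusters 5, 9 and 12. The fibroblast inflammatory-type list was at 0.37 with the mean over cells, 0.74 with a class for each cell, and 0.33, 0.25 and 0.10 in clusters 4, 10 and 11. The cytotoxic list was at 0.014 and -0.12 in CD8 sub-clusters 0 and 1, and at -0.30 without sub-cluster 6, a setting chosen after seeing the data. All 104 named class and gene pairs kept their direction over the whole class under 5 alternatives. They were picked from these data for intervals that exclude 0 and for UMIs spread over cells, so a kept direction is no independent support. Of 79 past 2-fold 67 stayed past it with the mean over cells, 77 without the 10 cells with most UMIs, 74 with a class for each cell, 75 with at least 1000 UMIs and 79 with 5 counts added. A class for each cell gave no T cell subsets. No paired analysis was possible because each group has 1 library, and for the same reason no library could be left out. Depth limits rare genes, and pooling of 3 tumours hides how far mice of 1 group differ.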

Other observations

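Several small clusters carried no class name, and their values are given without a comparison of types. Cluster 22 was led by osteoclast genes, among them Ctsk, a bone-resorbing protease, and held 1.01% of kept cells in the anti-PD-1 library (146) and 0.278% in the anti-LIF library (39). In it Ctsk was at 9751 and 6300.3 CPM. Cluster 23 was led by eosinophil genes such as Prg2, a granule protein, and Alox15, and held 33 cells (0.229%) and 98 cells (0.699%). Its cells were shallow, with medians of 663 and 639.5 UMIs, and Retnla had 65 and 981 UMIs in it. Cluster 21 held RNA of both macrophages and cancer cells, with 138 and 53 cells and medians of 11089.5 and 7247 UMIs. Cluster 25 held RNA of both T cells and macrophages, with 68 and 28 cells. Whether these last clusters are doublets could not be told, since the doublet caller had not worked.

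In cells like host gland epithelium, a class of 83 and 181 cells, Cd274 had 3 UMIs against 40 UMIs (7.75 CPM against 46.4 CPM), and Lif was at 90.5 CPM against 189 CPM (log2 ratio 1.05 [0.53, 1.63]). Both were higher in the anti-LIF library, the reverse of cancer cells. In mast cells, Il6 was at 602 CPM against 527 CPM.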
